A study of Rattus norvegicus with 12 samples.

Results

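The nuclear genes for the subunits of the mitochondrial respiratory chain and ATP synthase were examined in the liver of rats kept on a low protein diet. Members were the genes whose RefSeq symbol begins with Ndufa, Ndufb, Ndufc, Ndufs or Ndufv and ends in a number, the Sdha to Sdhd genes, Cyc1, and all genes beginning with Uqcr, with Cox4 to Cox8, or with Atp5. This rule found 79 of the 16667 genes that could be named, read by 104 probes. There were 32 genes of complex I, 4 of complex II, 9 of complex III, 17 of complex IV and 17 of complex V. Cox6c-ps1 is annotated as a pseudogene, and Ndufa4, grouped here with complex I by its symbol, is now assigned to complex IV.

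The animals were adult male Wistar rats, an outbred strain. In the control group, 6 rats received a diet with 14% casein, and in the low protein group 6 rats received an isocaloric diet with 5% casein, for 4 weeks in both groups. Casein is the milk protein that supplied the dietary protein. Total liver RNA of each rat was labelled with Cy3 and hybridised to its own single-colour Agilent array, so n = 6 rats per diet throughout. Whole liver contains several cell types, and a lower level in such a sample cannot tell fewer cells of a type from less RNA per cell.

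Complex I oxidises NADH and complex II oxidises succinate, and both pass electrons to coenzyme Q. Complex III carries them on to cytochrome c, and complex IV reduces oxygen with them. Complexes I, III and IV pump protons across the inner membrane, and complex V, the ATP synthase, uses the returning protons to make ATP. In liver this supplies the ATP for urea synthesis, gluconeogenesis and protein synthesis. All subunits of complex II are nuclear genes. Each of the other complexes also has a part encoded by mitochondrial DNA, which is not analysed here.

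Levels are log2 of the background-corrected spot signal less the 75th percentile of its array, and a change is the low protein mean less the control mean on that scale. On the 12 arrays, 61.2% to 69.9% of 58717 spots were well above background, meaning that the scanner software called the signal clearly brighter than the local background. A gene was tested where its probe was well above background on at least 5 of the 6 arrays of a diet. A gene was called where its adjusted p from limma was under 0.05. This held for 6.53% of all 21858 genes tested, 3.48% being higher and 3.05% lower with low protein. The liver label matched the markers: all 8 hepatocyte markers, among them albumin, were well above background on all 12 arrays, and Tat, Apoa1 and Cps1 were called lower. Their summed level was 446 to 521 times the 75th percentile in control rats and 385 to 485 times in low protein rats. The part of this difference in the results below was not tested. The arrays sat on 2 slides, with 4 rats of each diet on slide 1 and 2 of each diet on slide 2.

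Most subunit transcripts differed little between the diets, and few passed the test. Of the 79 members, 78 were tested, and Cox8c, a testis isoform, was not well above background on any array. Of the 78, 0 were called higher and 2 were called lower, Ndufv3 of complex I and Cox6a2 of complex IV. That is 2.56% of the members, beside 6.53% of all genes tested. The same 2 genes were the only members whose low protein values did not overlap the control values, a pattern shown by 4.99% of all genes. At an unadjusted p under 0.05 there were 1 member higher and 10 lower, 14.1% of those tested, beside 21.6% of all genes.

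The sizes were small and well bounded. The median size of change over the 78 members was 0.09, beside 0.14 over all genes, and the median standard error was 0.07, beside 0.13. For 68 members (87.2%) the whole 95% interval of the change lay within 1.3-fold in either direction, which was so for 39.4% of all genes. For 74 members (94.9%) it lay within 1.5-fold, against 69.9% of all genes. The intervals that reached past 1.5-fold were those of Ndufv3, Cox6a2, Cox8b and the pseudogene Cox6c-ps1. An interval inside these limits bounds the change and does not show that it was 0. The members were not matched to all genes by signal level. Most of them lay above the 75th percentile of the array, and the dim Cox6a2 had a standard error of 0.23. The part of brightness in these contrasts was not tested. The intervals also hold for this scaling alone, as the members' median moved from -0.07 to 0.06 without scaling.

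**Figure D1:**
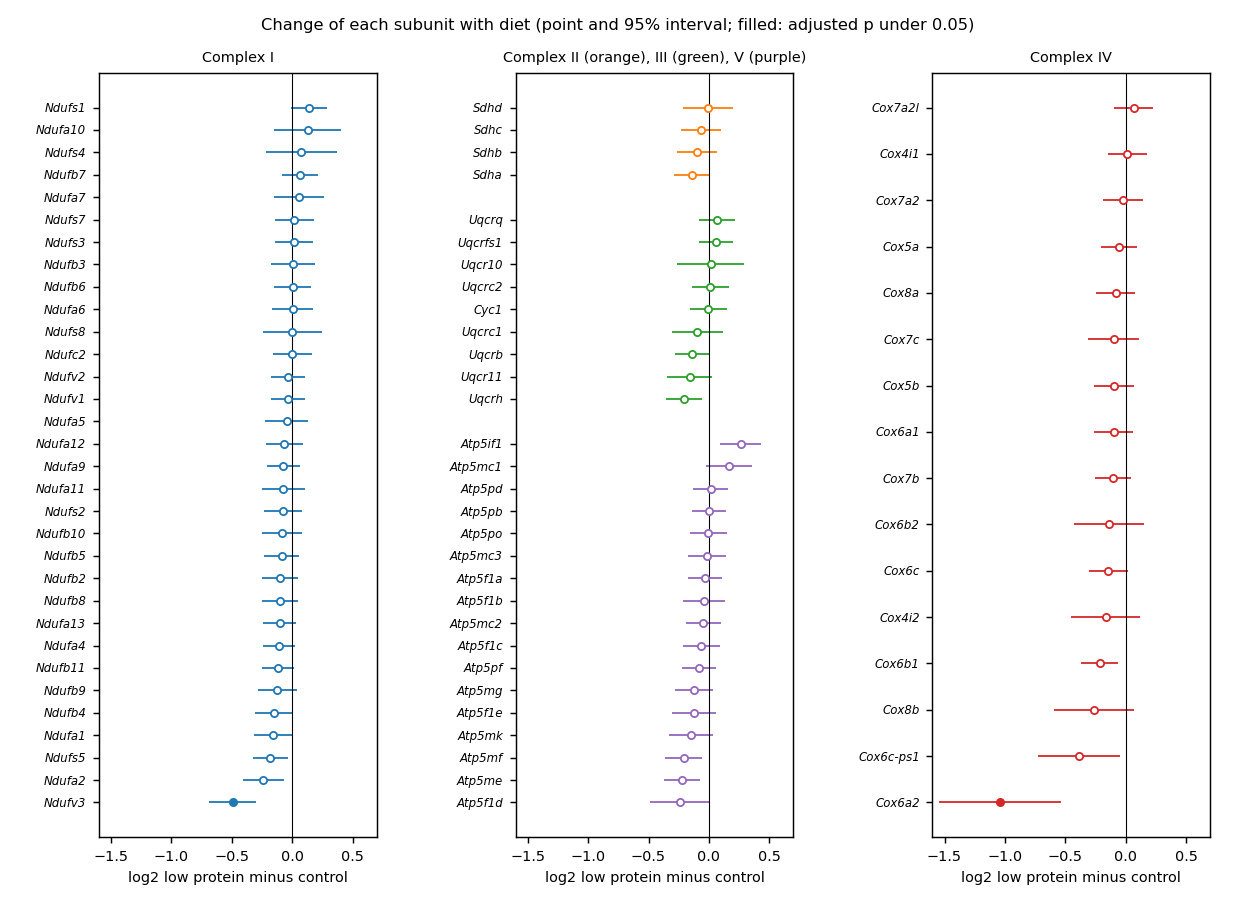
The change of each tested subunit is plotted as log2 low protein minus control, with its 95% interval from limma, 6 rats per diet. Only Ndufv3 (-0.49) and Cox6a2 (-1.04) are filled, the mark for an adjusted p under 0.05. Most other points sit slightly left of 0, a side that depends on the scaling between arrays (without scaling, 58 of 78 estimates were above 0).

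The sign of these small shifts depended on how arrays were scaled. With the 75th percentile, 56 of 78 estimates were below 0 (71.8%, beside 55.1% of all genes), with a median of -0.07 against -0.03 for all genes, whereas without scaling 58 were above 0 and the median was 0.06. Without scaling the median of all genes itself moved from -0.03 to 0.11, and relative to it the members' median was -0.05 under either choice. With quantile normalization 71 of 78 were below 0 and the median was -0.15. There 12 of 78 were called, all lower, beside 1604 of all genes, a larger share of the members than of all genes. With the 75th percentile the share of the members was the smaller one (2.56% beside 6.53%). The 12 were Atp5mf, Cox6a2, Ndufa1, Ndufa2, Ndufb11, Ndufb4, Ndufs5, Ndufv3, Sdha, Uqcr11, Uqcrb and Uqcrh. Apart from Cox6a2 and Ndufv3, their calls rested on the scaling, and not only near the threshold. With the 75th percentile the limma adjusted p was 0.318 for Uqcr11 and 0.314 for Ndufb11. Atp5if1, at 0.0690 with the 75th percentile, was not called with quantile normalization (0.0995). Under the 6 treatments of the signal that were compared, 45 to 66 members lay below the median of all genes.

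**Figure D2:**
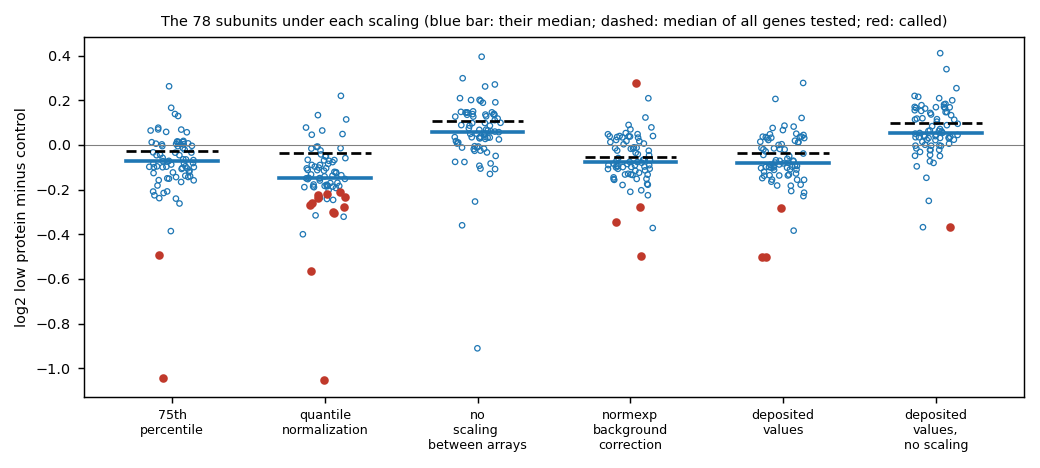
Each point is 1 of the 78 subunits, placed at its log2 change, under 6 ways of scaling or background correction on the horizontal axis. Blue bars are the members' median, dashed bars the median of all genes tested, and red points the members called. The members' median was below 0 with the 75th percentile (-0.07) and with quantile normalization (-0.15) and above 0 without scaling (0.06), while it lay below the median of all genes under each of them.

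The low protein rats did not share a common shift of the family. For each rat, the median deviation of the 78 members from the control mean was taken. It ran from -0.06 to 0.05 over the control rats. Among the low protein rats it was 0.07 in rat 1, -0.01 in rat 2, -0.15 in rat 3, -0.18 in rat 4, -0.09 in rat 5 and -0.06 in rat 6. Rats 3, 4 and 5 thus lay below every control rat, and rat 6, at -0.0610, only just below the lowest control rat, at -0.0601. Rat 2 lay within the control range and rat 1 above every control rat, so the diets overlapped. The array of rat 1 had the lowest share of spots well above background (61.2%), and the part of this was not tested. These medians were not computed relative to all genes or with another scaling.

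**Figure D3:**
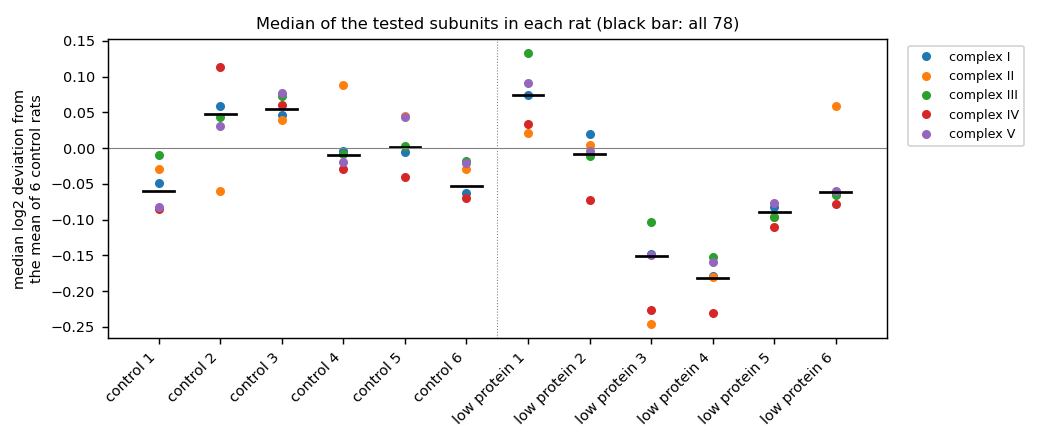
For each of the 12 rats, points give the median log2 deviation of the tested subunits of a complex from the mean of the 6 control rats, with 75th percentile scaling, and the black bar gives the median of all 78. The median of all members in the low protein rats ranges from -0.18 (rat 4) to 0.07 (rat 1).

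The start sites of the members were searched for short motifs of transcription factors known to act on respiratory genes. NRF1 and GABP (also called NRF2) are activators of many nuclear genes for mitochondrial proteins, and YY1 and the estrogen-related receptors (ERR) act on some of them. RefSeq promoters of the rat assembly GRCr8 were found for 69 members, and the 250 bases before each start were read on both strands. The NRF1 motif (GCGC, then any base, then TGCGC) was present in 10 of 69 (14.5%), against 3.75% of all 33469 promoters. The GABP motif CCGGAAG was present in 20 (29.0%), against 7.27%. The YY1 motif AAGATGG was found in 4 (5.8%, against 4.62%) and the ERR motif CAAGGTCA in 2 (2.9%, against 1.33%). At least 1 of the 4 motifs was held by 44.9% of the members and 15.7% of all promoters. These shares are not like for like. Members were counted at 1 promoter per gene, whereas every listed promoter was counted in the background, whether or not its gene was expressed in liver. A match is a run of letters and does not show that the factor binds there.

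The promoters shown are those of the 2 called members, of the complex II and complex III members with the lowest estimate, and of Atp5me, the one printed here with 3 motifs. Capitals mark motif matches on either strand. The windows are chr20:9613536-9613785 on the plus strand for Ndufv3, chr1:192219717-192219966 on the minus strand for Cox6a2, chr1:30764303-30764552 on the plus strand for Sdha, chr5:134790883-134791132 on the minus strand for Uqcrh and chr14:1464610-1464859 on the plus strand for Atp5me.
Ndufv3: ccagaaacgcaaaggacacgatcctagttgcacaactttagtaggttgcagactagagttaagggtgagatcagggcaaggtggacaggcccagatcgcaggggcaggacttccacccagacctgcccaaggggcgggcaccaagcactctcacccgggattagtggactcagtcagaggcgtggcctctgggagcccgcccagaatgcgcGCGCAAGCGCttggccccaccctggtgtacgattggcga
Cox6a2: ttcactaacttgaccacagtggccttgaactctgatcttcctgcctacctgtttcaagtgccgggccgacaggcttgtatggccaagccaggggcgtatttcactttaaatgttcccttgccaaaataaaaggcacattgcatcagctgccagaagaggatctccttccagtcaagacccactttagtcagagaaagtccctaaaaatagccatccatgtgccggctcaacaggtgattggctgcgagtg
Sdha: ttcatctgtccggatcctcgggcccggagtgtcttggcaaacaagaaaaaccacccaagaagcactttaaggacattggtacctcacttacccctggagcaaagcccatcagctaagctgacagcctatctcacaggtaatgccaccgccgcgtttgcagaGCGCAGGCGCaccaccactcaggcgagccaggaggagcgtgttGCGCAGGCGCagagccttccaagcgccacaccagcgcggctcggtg
Uqcrh: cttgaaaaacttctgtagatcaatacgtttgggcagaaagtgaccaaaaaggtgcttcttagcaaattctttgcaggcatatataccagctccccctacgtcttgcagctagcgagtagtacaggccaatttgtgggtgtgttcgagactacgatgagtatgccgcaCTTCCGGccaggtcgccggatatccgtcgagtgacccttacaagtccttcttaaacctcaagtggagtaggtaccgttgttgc
Atp5me: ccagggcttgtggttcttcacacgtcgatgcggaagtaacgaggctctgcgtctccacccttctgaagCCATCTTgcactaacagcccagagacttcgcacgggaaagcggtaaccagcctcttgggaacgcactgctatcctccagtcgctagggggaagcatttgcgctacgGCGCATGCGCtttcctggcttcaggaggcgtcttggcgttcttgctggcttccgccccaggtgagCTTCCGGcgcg

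Ndufv3 holds 1 NRF1 match close to its start and Sdha holds 2, while Uqcrh holds 1 GABP match. Atp5me holds an NRF1, a GABP and a YY1 match, and none of the 4 motifs was found in the Cox6a2 window. The 10 members with an NRF1 match had a median change of -0.08 and estimates below 0 in 10 of 10 cases with 75th percentile scaling, the sign of which depends on scaling as above. The 20 members with a GABP match had a median of -0.08, with 14 below 0. The 37 tested members with no match had a median of -0.06, with 22 below 0. The difference between these sets was not tested.

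Complex I, the NADH dehydrogenase, had 1 member called of 32, Ndufv3. The median change of the complex was -0.07 with 12 estimates above 0 and 20 below, and without scaling the median was 0.06. The 7 core subunits, which carry the flavin and the iron-sulfur clusters, had a median of 0.00 and ranged from -0.08 to 0.14, with 0 called. The 8 accessory subunits of the matrix arm had a median of -0.05, and the 16 of the membrane arm had a median of -0.09 and a range of -0.18 to 0.13. Ndufs1, the largest iron-sulfur protein of the complex, had the highest estimate. Its control values ran from 2.23 over a median of 2.30 to 2.36, and its low protein values from 2.28 over 2.43 to 2.60. The diets overlapped, and the change of 0.14 ± 0.07 (SE) did not pass the test (adjusted p = 0.278). Ndufa2, an accessory subunit of the matrix arm, was at -0.24 ± 0.08 (adjusted p = 0.0943), and Ndufs5, of the membrane arm, at -0.18 ± 0.07 (adjusted p = 0.135).

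Ndufv3, a small accessory subunit of the NADH-oxidising module at the tip of the matrix arm, was lower with low protein. Its control values ran from 3.04 over a median of 3.16 to 3.25. The low protein values ran from 2.41 over 2.69 to 2.83. Every low protein rat lay below every control rat. The change was -0.49 ± 0.09 (SE; 95% interval -0.69 to -0.30), 1.41-fold lower, with a limma adjusted p of 0.00738. It was -0.41 on slide 1 and -0.66 on slide 2, with limma adjusted p of 0.130 and 0.316 in these smaller fits, and 0.00777 with slide as a block. Without scaling between arrays the change was -0.36 with an adjusted p of 0.0903.

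A second, dimmer Ndufv3 probe did not follow the first. The gene is known to give a short and a long protein by alternative splicing, and the 2 probes are assigned to different ones of its 2 RefSeq transcripts. The files do not give the probe sequences, so which exon each probe reads is not stated here. On the dimmer probe the control values were 0.12 to 0.38 and the low protein values 0.25 to 0.61. The groups overlapped, and the estimate was 0.18 ± 0.08 (SE; adjusted p = 0.209 over all probes), opposite in sign to the brighter probe. When the probes of the gene were averaged, the change was -0.16 with an adjusted p of 0.244, so the call belongs to the brighter probe.

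The difference between the 2 Ndufv3 probes within each array is not altered by subtracting 1 value per array, as the 75th percentile scaling does. It was not computed with quantile normalization. It was 2.74 to 3.02 in control rats (mean 2.92 ± 0.11, SD, n = 6). In low protein rats it was 1.95 to 2.58 (mean 2.24 ± 0.21, SD, n = 6). The diets did not overlap, and the low protein mean less the control mean was -0.67. It was -0.59 on slide 1 and -0.83 on slide 2. The pair of probes was chosen after their values had been seen to diverge, so this is a description with no test.

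**Figure D4:**
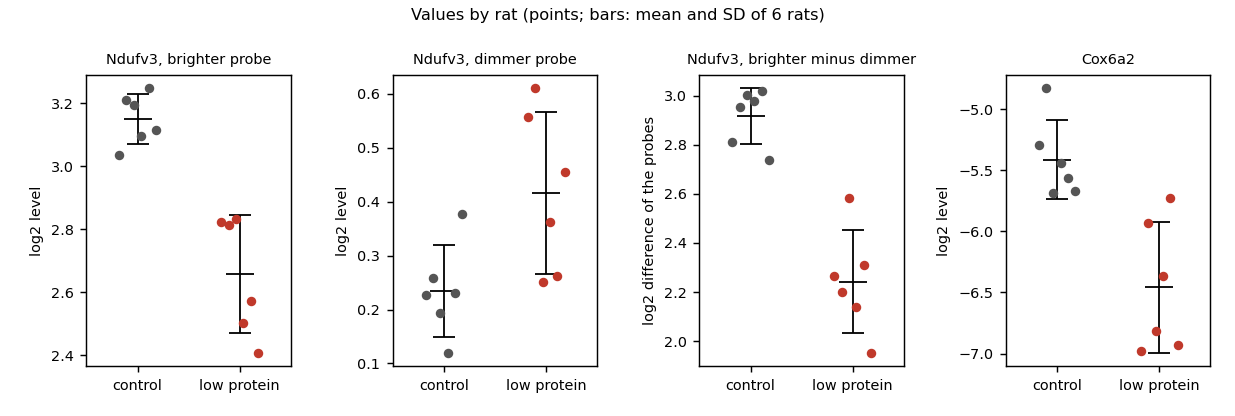
Points are single rats, 6 per diet, and bars are the mean and SD, on log2 scales that differ between panels. The brighter Ndufv3 probe (2.41 to 2.83 against 3.04 to 3.25 in controls), the difference of the Ndufv3 probes (1.95 to 2.58 against 2.74 to 3.02) and Cox6a2 separate the diets, whereas the dimmer Ndufv3 probe overlaps between them.

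Complex II, the succinate dehydrogenase, had 0 of 4 members called. With 75th percentile scaling the estimates were -0.14 for Sdha, -0.10 for Sdhb, -0.07 for Sdhc and -0.01 for Sdhd, and without scaling the median of the complex moved from -0.08 to 0.05. Sdha is the flavoprotein that oxidises succinate, Sdhb holds the iron-sulfur clusters, and Sdhc and Sdhd anchor them in the membrane. Sdha ran from 3.55 over 3.66 to 3.68 in control rats and from 3.34 over 3.50 to 3.66 in low protein rats. The groups overlapped and the adjusted p was 0.241. All 4 intervals lay within 1.3-fold, the widest lower bound being -0.29 for Sdha.

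Complex III, which hands electrons from coenzyme Q to cytochrome c, had 0 of 9 members called and a median of -0.00, which became -0.09 without control rat 2, -0.09 with quantile normalization and 0.13 without scaling. Of the subunits that carry electrons, Cyc1, the cytochrome c1 protein, was at -0.00 ± 0.07 and Uqcrfs1, the Rieske iron-sulfur protein, at 0.06 ± 0.07, beside 0.13 and 0.19 without scaling. The lowest estimate was that of Uqcrh, the hinge protein beside cytochrome c1. Its control values ran from 4.10 over 4.23 to 4.37 and its low protein values from 3.90 over 4.04 to 4.13. The groups overlapped narrowly, and the change of -0.21 ± 0.07 did not pass the test (adjusted p = 0.0940). It passed with quantile normalization (-0.30, adjusted p = 0.0103). The largest positive estimate was 0.07 ± 0.07 for Uqcrq, a small accessory subunit (adjusted p = 0.619).

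Complex IV, the cytochrome c oxidase, had 1 of 16 tested members called, Cox6a2, and 14 of 16 estimates below 0. Its median was -0.10, beside 0.03 without scaling. The 10 common isoforms, found in most tissues, ranged from -0.22 (Cox6b1) to 0.01 (Cox4i1), with 0 called. Cox6b1, which lies at the face towards cytochrome c, was at -0.22 ± 0.07 (adjusted p = 0.0948). Cox7a2l, a factor that joins complex III to complex IV, had the highest estimate, 0.06 ± 0.07 (adjusted p = 0.678), and its sign reversed with quantile normalization (-0.02). The pseudogene Cox6c-ps1 was at -0.39 ± 0.16 (adjusted p = 0.172), and its probe may also read transcripts of Cox6c, which was at -0.14 ± 0.07.

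With 75th percentile scaling the lowest estimate among the members was that of a tissue-restricted isoform of complex IV. Cox6a2, the heart and skeletal muscle isoform of subunit 6a, was dim, well above background on 6 control and 5 low protein arrays. Its control values ran from -5.69 over a median of -5.50 to -4.83 and its low protein values from -6.98 over -6.59 to -5.73. Every low protein rat lay below every control rat, although the lowest control and the highest low protein rat differed little. The change was -1.04 ± 0.23 (SE; 95% interval -1.55 to -0.54), 2.06-fold lower, with a limma adjusted p of 0.0201. A second Cox6a2 probe was well above background on 6 control but only 3 low protein arrays. It passed the filter through the control group alone, so its estimate of -0.86 is given as a description and not as support.

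The size of the Cox6a2 change depended on the background treatment. It was -0.35 with normexp correction (adjusted p = 0.0208), -0.50 with the deposited values (adjusted p = 0.0120) and -0.91 without scaling (adjusted p = 0.0681). With the deposited values and no scaling it was -0.37 (adjusted p = 0.108), and without the filter on dim probes the adjusted p was 0.0568. With normexp the estimates of Ndufv3 (-0.50) and Cox6c-ps1 (-0.37) were lower than that of Cox6a2. It was -0.97 on slide 1 (adjusted p = 0.0982) and -1.19 on slide 2 (adjusted p = 0.452). With slide as a block the adjusted p was 0.0212. The common liver isoform of the same subunit, Cox6a1, was at -0.10 ± 0.08 and was not called. The other tested restricted isoforms were at -0.26 ± 0.15 (Cox8b), -0.17 ± 0.13 (Cox4i2) and -0.14 ± 0.13 (Cox6b2), with 0 called. Cox8b was well above background on 6 control but only 3 low protein arrays. It passed the filter through the control group alone, so its estimate is a description and not support. It is included in the counts of estimates below 0 for complex IV and for all members.

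Striated muscle markers were read beside Cox6a2. Of 6, 3 were tested and 0 were called: Ckm was at -0.25 (adjusted p = 0.549), Mb at -0.12 and Tnnt2 at 0.23. Myh6 and Myh7, the heart myosins, were well above background on 0 arrays, and Actn2 on 4. The summed level of the 3 tested markers was 0.220 to 0.348 times the 75th percentile in control rats and 0.197 to 0.289 times in low protein rats. Their part in the Cox6a2 result was not tested.

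Complex V, the ATP synthase, had 0 of 17 members called, with 4 estimates above 0, 13 below and a median of -0.05, beside 0.09 without scaling. Atp5if1, the inhibitor protein that blocks ATP hydrolysis by the enzyme, had the highest estimate of all 78 members. Its control values ran from 1.24 over a median of 1.42 to 1.55 and its low protein values from 1.45 over 1.67 to 1.79. In 5 of 6 low protein rats it lay above every control rat. The change of 0.26 ± 0.08 (SE; 95% interval 0.09 to 0.43) did not pass the test (adjusted p = 0.0690). It did pass with normexp correction (adjusted p = 0.0403), with a trended robust spread (adjusted p = 0.0397) and without low protein rat 3 (adjusted p = 0.0397).

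The 4 small membrane subunits of complex V all had estimates below 0 with 75th percentile scaling. These subunits, among which Atp5me and Atp5mf take part in holding synthase dimers together, ranged from -0.23 to -0.12 with a median of -0.18. Atp5me ran from 6.08 over 6.33 to 6.37 in control rats and from 5.99 over 6.04 to 6.15 in low protein rats. Only control rat 1, at 6.08, lay within the low protein range. The change of -0.23 ± 0.07 had an adjusted p of 0.0698 and passed with the deposited values (adjusted p = 0.0188). The 5 subunits of the catalytic F1 part had a median of -0.06, and among them Atp5f1d, the delta subunit of the central stalk, was lowest at -0.24 ± 0.11 (adjusted p = 0.239). The 4 peripheral stalk subunits were at -0.08 to 0.01 and the 3 genes for the identical c ring protein at -0.05 to 0.17. These signs hold for 75th percentile scaling.

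Members read by more than 1 probe show how far the estimates of a gene differ between probes. There were 19 such members. Probes of a gene share the arrays and their scaling, so a shared sign cannot check a shift that depends on the scaling. The probes of 13 shared a sign and those of 6 did not (Atp5f1a, Atp5mc2, Atp5pd, Cyc1, Ndufv3 and Uqcr10). In 12 of the 19 all probes lay within 0.1 of each other, and the median spread was 0.06. The widest spread was 0.67, that of Ndufv3. It was followed by 0.44 for Uqcrq, whose dim second probe read 0.51 ± 0.28. For the other 5 members with mixed signs the spread was 0.02 to 0.13.

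Other genes of oxidative phosphorylation were read in the same test. Assembly factors build the complexes without staying in them, and of 37 tested 2 were called higher and 0 lower (5.41%, beside 6.53% of all genes). With 75th percentile scaling the median of the list was 0.06, and that of the subunits was -0.07. Ndufaf4, an assembly factor of complex I, ran from -0.52 to 0.14 in control rats and from 0.27 to 1.01 in low protein rats. The diets did not overlap, and its change was 0.67 ± 0.15 (SE; adjusted p = 0.0191). All 3 Ndufaf4 probes gave 0.59 to 0.67. Bcs1l, which inserts the Rieske protein into complex III, ran from -3.55 to -3.30 and from -3.20 to -2.77, with a change of 0.41 ± 0.08 (adjusted p = 0.0130). Cox18 (0.24, adjusted p = 0.0627) and Ecsit (0.22, adjusted p = 0.0773) also did not overlap and did not pass the test.

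Regulators of mitochondrial gene expression had 2 of 21 called, both higher (9.52%, beside 6.53% of all genes). Pprc1, a coactivator of NRF1 related to the PGC-1 proteins, ran from -2.68 to -2.11 in control rats and from -1.89 to -1.13 in low protein rats. Its change of 0.87 ± 0.14 (adjusted p = 0.00448) was 0.99 on slide 1 and 0.63 on slide 2. Tfb2m, which starts transcription of mitochondrial DNA, was at 0.30 ± 0.07 (adjusted p = 0.0281). Its range was -0.63 to -0.33 in control rats and -0.31 to -0.07 in low protein rats. Its call was lost when any of several single rats was left out (adjusted p up to 0.0617). Counting all 26 alternative settings, the Tfb2m call was lost in 11. Tfam, which packages mitochondrial DNA, was at 0.17 ± 0.07 (adjusted p = 0.150), and Ppargc1a, the coactivator PGC-1α, at -0.76 ± 0.33 (adjusted p = 0.195).

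The electron carriers and other isoforms had 1 of 9 called (11.1%, beside 6.53% of all genes). This was Dhodh, a pyrimidine synthesis enzyme that delivers electrons to coenzyme Q, at 0.50 ± 0.12 (adjusted p = 0.0313). Its 3 probes gave 0.50 ± 0.12, 0.31 ± 0.15 and, on the dimmest, -0.78 ± 0.63 (SE), and their mean of 0.01 was not called. The Dhodh call was also lost without some single rats (adjusted p up to 0.0758), and in 13 of all 26 alternative settings. Gpd2, the mitochondrial glycerol phosphate dehydrogenase, was at 0.69 ± 0.20 (adjusted p = 0.0612), and Cycs, cytochrome c itself, at 0.02 ± 0.07. The tricarboxylic acid cycle had 1 of 14 called (7.14%, beside 6.53% of all genes), Idh2, at 0.57 ± 0.15 (adjusted p = 0.0381). The Idh2 call was also lost without some single rats (adjusted p up to 0.0782), and in 14 of all 26 alternative settings. Coenzyme Q synthesis had 0 of 12 called and the carriers and uncoupling proteins 0 of 6. Slc25a25, an ATP-magnesium/phosphate carrier, was at -0.83 ± 0.27 (adjusted p = 0.0866).

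**Figure D5:**
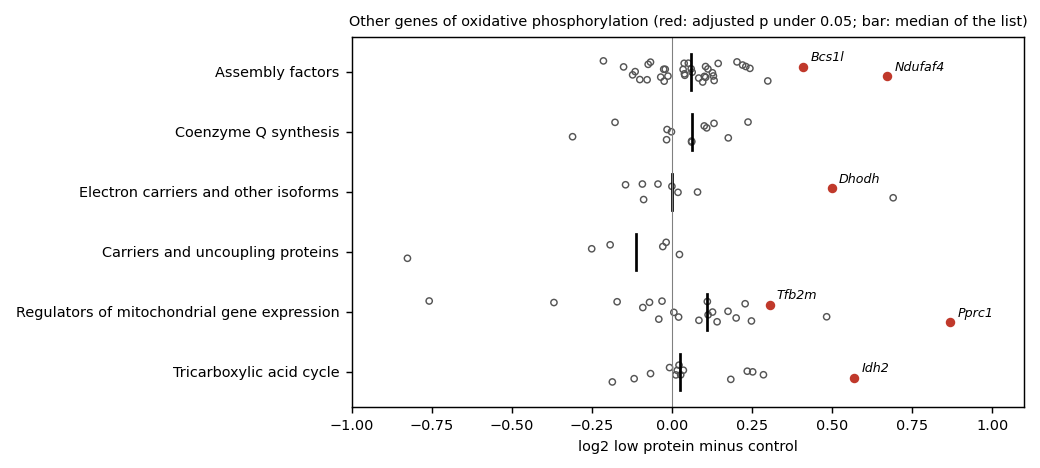
Each point is a gene of 1 of the 6 lists, placed at its log2 change with 75th percentile scaling, and black bars are list medians. The 6 genes called, in red, were all higher with low protein, with Pprc1 (0.87) and Ndufaf4 (0.67) farthest to the right. Of all genes tested, 6.53% were called, 3.48% being higher and 3.05% lower.

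Markers of other liver cell types were read beside these results. The 6 macrophage and Kupffer cell markers had 0 called, a median of -0.39 and estimates below 0 in 6 of 6 (below 0 also relative to the median of all genes). Their summed level was 12.7 to 26.5 times the 75th percentile in control rats and 12.7 to 18.8 times in low protein rats. Of 3 genes read as lymphocyte markers, 1 was called lower, Ptprc (-0.43, adjusted p = 0.0291), which is not specific to lymphocytes. The median of the 3 was -0.09. None of the tested endothelial, stellate cell, cholangiocyte or erythroid markers was called. The part of these markers in the subunit results was not tested.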

How the data were processed

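Per the labels, liver RNA of 12 rats was hybridised 1 rat per array. Scans were read with Agilent Feature Extraction 12.0.3.1, which subtracted background, per the file headers. The deposited scanner files hold spot intensity that is linear and unscaled across arrays. The series matrix deposited by the authors also holds intensity: it equals the median spot signal at 100% of spots in every array. It has 0 columns without a sample. Depth does not apply to arrays, and their number limits the precision.

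Genes were named through the RefSeq accession of each probe and a GRCr8 table (21215 of 45598 probes, 46.5%). The headers name another build, so only promoters carry coordinates. The planned use of a gene name column was replaced by this, as the files have none. Values were log2 processed signal less the 75th percentile of the array, with outlier spots (453 to 739 per array) set missing and 0 saturated. The brightest probe of a gene was used, after a filter of 5 of 6 arrays well above background. Such a filter keeps some genes through 1 diet alone, and dim genes have uncertain folds. The fit over all 21858 genes used limma 3.58.1 in R 4.3.3 (lmFit and eBayes, two-sided, Benjamini-Hochberg over all genes). Every adjusted p comes from it unless another setting or a single probe is named. Those come from their own limma fits, adjusted over all genes or all probes of that fit. Tables used the package data.table (version 1.17.8), and promoters and figures used Python 3.11.15 with matplotlib 3.10.9, numpy 2.4.6 and pandas 2.3.3.

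Members and lists were chosen with earlier results of these data known. Genes named with values were the called or non-overlapping members, the highest and lowest estimate per complex, members whose probes differ in sign and up to 4 called genes per list. Ndufa2, Ndufs5, Cox6b1, Atp5me and the further genes given were chosen after their values were seen. On simulated data for low protein against control (21858 genes, 200 changed) the share of changed genes found was 61.2% at 1.5-fold, 80.6% at 2-fold and 97.0% at 4-fold, with 4.79% of calls false. Alternatives were scaling, background correction, the deposited values, probe filters, probe choice, outlier spots, the spread estimate, slide, rat number and each rat left out.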

Additional observations from a re-analysis of the deposited data

Results flagged for a closer look

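In each diet, Dixon's test was used to look for a rat far from the other 5. It was applied to every tested subunit, the called genes of the other lists, and the medians per rat of each complex and all members. Chance marks about 1 group in 20, and 5 of 180 groups of 6 were marked. Control rat 2 was lowest in 3 of them. Its Uqcr10 level was 5.29, against 5.87 to 6.08 in the other control rats. Its Sdhd level was 3.72 (others 4.05 to 4.24) and its Sdha level 3.55 (others 3.64 to 3.68). A second Uqcr10 probe read 5.60 in control rat 2, above the other control rats, and the second probe of Atp5f1a, chosen after its values were seen, read 5.67 there (others 6.33 to 6.41) while the first read 6.75. Without control rat 2 the Uqcr10 estimate moved from 0.01 to -0.10. Control rat 1 was lowest for Atp5me, at 6.08 (others 6.26 to 6.37), and without it Atp5me was called. Low protein rat 3 was lowest for the dim Cox8b, at -7.61 (others -7.07 to -6.76).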

How the results depend on the processing

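Ndufv3 and Cox6a2 kept their calls in all 12 fits that left out 1 rat. The number of members called was 2 to 3 in these fits, with Atp5me added without control rat 1 and Atp5if1 without low protein rat 3. The count over all genes was 856 to 1307, lowest without control rat 3, against 1428 in full. Complex medians over these fits were -0.08 to -0.03 for complex I, -0.12 to -0.05 for II, -0.0858 (without control rat 2) to 0.0118 for III, -0.14 to -0.08 for IV and -0.09 to -0.03 for V.

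The number of members called was 12 with quantile normalization, 0 without scaling, 4 with normexp, 1 with the deposited values without scaling (an alternative chosen after seeing the data), 1 without a filter, 1 when all 12 arrays had to be well above background, 1 with the mean of probes, 6 with a trended robust spread, and 0 on slide 1 or on slide 2 alone, where fewer rats were compared. At these settings all genes gave 1604 calls with quantile normalization, 892 without scaling, 1611 with normexp and 1285 with the deposited values without scaling. They gave 618 without a filter and 1458 when all 12 arrays had to be well above background. The mean of probes gave 1458, a trended robust spread 1753, slide 1 gave 164 and slide 2 gave 12. Quantile normalization moved the median of complex III to -0.0896 and of complex V to -0.136, and slide 1 alone moved that of complex III to -0.0803. Without scaling the medians of complexes I to V were 0.0646, 0.0505, 0.128, 0.0290 and 0.0864, and with the deposited values without scaling they were 0.0746, 0.0264, 0.166, 0.0328 and 0.0949. The second Ndufv3 probe alone gave 0.18. The cause of these shifts was not tested.

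With rat number as a replicate block, 2 members were called, the same genes (Ndufv3, adjusted p = 0.0240, and Cox6a2, adjusted p = 0.0206), and 1412 genes in all. Same-numbered rats had correlations of deviation of 0.03 to 0.26, over 0.1 in 5 of 6, and 2 of 6 rats correlated best with their own number. These values do not decide whether the numbers mark pairs. No label links rats of the same number, so the numbers were not taken as pairs. With slide as a block 2 members and 1491 genes were called. Array signal limits dim members such as Cox6a2 and Cox8b, whose folds rest on the background treatment.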
